A study of Mus musculus with 6 samples.

Results

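The genes described here are 35 marker genes of the blood vessel wall in mouse skeletal muscle, 24 of endothelial cells, 6 of pericytes and 5 of smooth muscle cells. They were chosen by symbol as known markers of these cells, with earlier results of these data known. All 35 were found among the 41025 genes of each table. The RNA came from the tibialis anterior, a mostly fast hindlimb muscle, of C57BL/6 mice aged 8 weeks. There were 3 libraries labelled wild type (WT1, WT2 and WT3) and 3 labelled knockout (KO1, KO2 and KO3) for Mettl21e, a protein methyltransferase gene of skeletal muscle, and the labels name no treatment in either group. The sources used here do not give the construction of the allele or the cell types in which the gene is deleted. Mettl21e itself was not lower under the knockout label, with 2.46, 0.309 and 1.23 FPKM in WT1, WT2 and WT3 and 1.64, 1.45 and 1.88 FPKM in KO1, KO2 and KO3. WT and KO are therefore the names of labels throughout, and every direction below is a direction between labels. FPKM is the number of fragments on a gene, scaled to its length and to the library total. The totals behind the values were 8476591 to 10856669 fragments per library. The labelled tissue was borne out by its own genes, since Acta1, Ckm, Ttn, Des, Myh4 and Mb together held 29017 to 36287 FPKM in every library. The design text calls the replicates biological without saying whether the mice were separate, so a p-value here measures only the spread over 6 libraries, which may be partly technical.

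Capillaries run along every muscle fibre and are lined by endothelial cells. These cells form the barrier to the blood, let oxygen through to the fibre and take up fatty acids for it. They also respond to vascular endothelial growth factor released by the muscle. Pericytes are embedded in the wall of capillaries and are held there by platelet-derived growth factor signalling, while smooth muscle cells wrap arterioles and larger vessels and set blood flow by contraction. Both are called mural cells. In RNA from whole muscle most of these genes report mainly on cells other than the fibres, but Abcc9 is also made by the fibres. Aqp1 is also a gene of red cells. Fewer cells of a type cannot be told apart from less RNA per cell.

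Transcripts of all 3 cell classes were present in every library, and their levels were close between the labels. The 24 endothelial genes together held 794, 889 and 887 FPKM in WT1, WT2 and WT3 and 896, 814 and 793 FPKM in KO1, KO2 and KO3, the order in which values are given below. The groups overlapped throughout, with means of 857 ± 54.5 and 834 ± 54.3 FPKM (SD, n = 3 each). The 6 pericyte genes held 180.1, 284 and 272 FPKM against 234, 256 and 241 FPKM, and WT1 was the lowest of all. The 5 smooth muscle genes held 165, 266 and 324 FPKM against 238, 235 and 203 FPKM, and here the libraries labelled wild type took both the lowest and the highest places. Means were 246 ± 57.0 and 244 ± 11.4 FPKM for the pericyte genes and 251 ± 80.4 and 225 ± 19.7 FPKM for the smooth muscle genes (SD, n = 3 each).

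**Figure D1:**
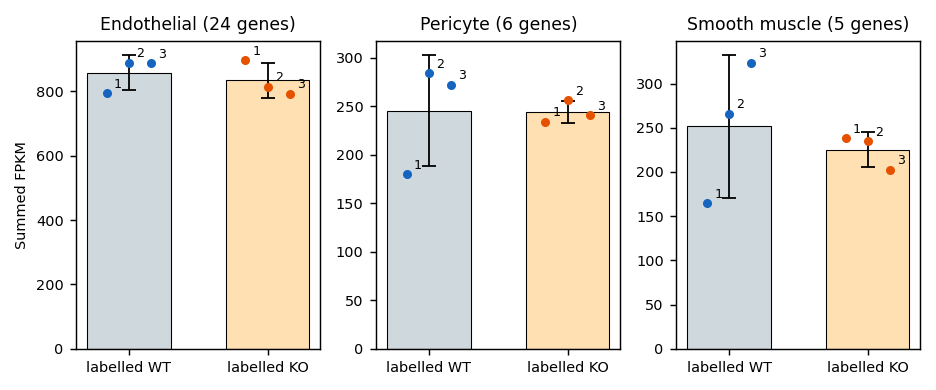
Summed FPKM of the 24 endothelial, 6 pericyte and 5 smooth muscle genes, with bars for the mean of the 3 libraries of each label, error bars for the SD and dots for single libraries. The labels overlap in all 3 classes, and the lowest pericyte and smooth muscle dots (180.1 and 165 FPKM) both belong to WT1.

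All 35 genes had a mean of at least 1 FPKM and were tested among 11383 genes with limma on log2(FPKM + 1), knockout label minus wild-type label. None passed a Benjamini-Hochberg adjusted p of 0.05, and the smallest adjusted p among them by limma was 0.988. Nor did any other gene, so the share called was 0.0% of all genes. None of the 35 had an unadjusted p below 0.05 by limma or by limma voom on recovered fragments, where 4.59% and 4.09% of all genes did. With each library's median subtracted, 1 did (Abcc9, unadjusted p = 0.037 by limma), beside 4.79%. The log2 difference was below 0 for 26 of the 35, beside 56.7% of all genes. Its median was -0.082 for the endothelial genes, -0.079 for the pericyte genes and -0.10 for the smooth muscle genes, against -0.024 over all genes tested. The side of 0 is a matter of scaling for many genes: under that scaling 43.2% of all genes lay below 0 and 9 of the 24 endothelial genes lay above it, in place of 5. Subtracting medians moves every gene by the same amount, so it leaves the place of the 35 genes relative to all genes unchanged. On the scale of FPKM + 1, the 95% interval of the difference lay within 2-fold either way for 34 of the 35 genes. It lay within 1.5-fold for 23, of which 17 were endothelial. Aplnr, the receptor of the peptide apelin, was the exception at 2-fold on this scale, with a log2 interval of -1.04 to 0.40. It had 46 to 154 fragments per library. This scale shrinks fold changes of low genes, so for them the bounds are wider in FPKM. Cnn1, with a mean of 1.86 FPKM, had a log2 difference of -0.32, and of -0.46 with a pseudocount of 0.1.

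**Figure D2:**
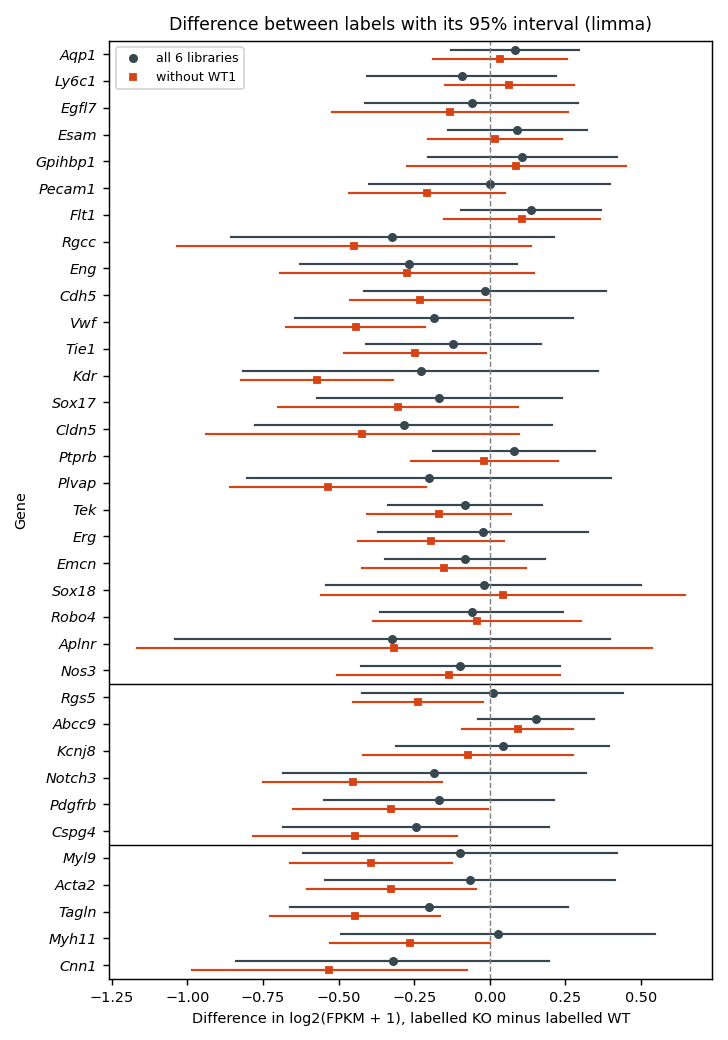
Log2 difference in log2(FPKM + 1), knockout label minus wild-type label, for each of the 35 genes, with the 95% interval from limma. Grey circles use all 6 libraries and orange squares leave out WT1, which takes the smooth muscle median from -0.10 to -0.39.

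The genes that mark the endothelial surface and its junctions gave values from 7.35 to 52.6 FPKM. Pecam1 (chr11:106654217-106750628, minus strand, mm10), the adhesion molecule also known as CD31, stood at 32.7, 49.1 and 52.6 FPKM (WT) and 47.5, 38.4 and 46.3 FPKM (KO). The 3 values labelled knockout lay inside the wild-type range. The log2 difference was -0.0010 ± 0.17 (SE), with a 95% interval of -0.40 to 0.40. Esam (chr9:37528078-37538319, plus strand), an adhesion molecule of endothelial tight junctions, was at 40.0, 47.9 and 45.9 FPKM against 48.0, 51.3 and 43.4 FPKM. Its groups overlapped, with a log2 difference of 0.091 ± 0.10 (SE). Cdh5, the cadherin of endothelial adherens junctions, ranged from 24.8 to 41.7 FPKM over the 6 libraries and had a log2 difference of -0.015. Cldn5, a tight junction claudin, ranged from 7.73 to 17.1 FPKM, and Emcn, a sialomucin of capillary and venous endothelium, from 7.35 to 9.50 FPKM, the first varying far more between libraries than the second.

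Among the receptors, the 2 main receptors for vascular endothelial growth factor did not share a pattern over the libraries. Flt1 (chr5:147561604-147726011, minus strand), which binds the factor tightly and acts in part as a decoy, was at 39.5, 42.0 and 42.1 FPKM (WT) and 50.5, 46.3 and 39.7 FPKM (KO). It had the highest log2 difference of the endothelial genes, at 0.14 ± 0.10 (SE; 95% interval -0.096 to 0.37), with overlapping groups. Kdr, the main signalling receptor, was singled out after its values were seen, at 11.2, 24.6 and 23.2 FPKM against 17.1, 14.1 and 16.2 FPKM. Its lowest and its 2 highest values were all labelled wild type, and the log2 difference was -0.23 ± 0.26 (SE). The ratio of Flt1 to Kdr in FPKM was accordingly 3.53, 1.71 and 1.81 (WT) and 2.96, 3.28 and 2.46 (KO), so that WT2 and WT3 stood below the other 4 libraries. Tek and Tie1, the receptor pair of the angiopoietin pathway, ranged from 10.04 to 12.4 and from 16.8 to 23.6 FPKM. Ptprb, the phosphatase that restrains Tek, had a range close to that of Tek, from 9.60 to 12.4 FPKM. Eng, a co-receptor for bone morphogenetic proteins, had the second smallest unadjusted p of the 35 (0.122 by limma) and was singled out for it after its values were seen, at 40.3, 38.6 and 42.9 FPKM against 43.8, 27.5 and 31.0 FPKM. KO1 was above every other library, and KO2 and KO3 were below every other. Robo4, which stabilises the vessel wall, ranged from 6.48 to 8.63 FPKM.

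Many endothelial genes carry binding sites for ETS factors such as Erg in their promoters, and the upstream sequences of several members show the core letters. RefSeq promoter windows (build GRCm38.p6, 250 bases before each start) matched 21 of the 35 genes with 26 windows. The hexamer AGGAAG, on either strand, was in 11 of 18 endothelial windows, which belong to 10 of 13 genes (Aqp1, Egfl7, Emcn, Eng, Erg, Flt1, Ly6c1, Rgcc, Robo4 and Tie1). It was in none of the 5 pericyte and none of the 3 smooth muscle windows, and in 29.5% of 32851 windows of all genes. A match is a description of the letters and not a bound site. The windows of 3 genes are printed in the direction of transcription because they hold such matches, at 129 and 53 bases upstream of the RefSeq start for Flt1, 52 and 6 for Eng and 29 for Aqp1, whose RefSeq start here lies upstream of the annotated gene start given below, with the matches in capitals (CTTCCT is the same hexamer on the other strand). They lie at chr5:147726012-147726261 (minus strand), chr2:32646345-32646594 (plus strand) and chr6:55336049-55336298 (plus strand).
Flt1: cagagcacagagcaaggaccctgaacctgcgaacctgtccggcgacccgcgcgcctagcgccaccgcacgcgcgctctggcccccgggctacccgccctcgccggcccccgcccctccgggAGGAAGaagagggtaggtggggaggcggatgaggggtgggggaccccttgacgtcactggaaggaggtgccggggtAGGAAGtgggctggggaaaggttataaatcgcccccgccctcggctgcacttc
Eng: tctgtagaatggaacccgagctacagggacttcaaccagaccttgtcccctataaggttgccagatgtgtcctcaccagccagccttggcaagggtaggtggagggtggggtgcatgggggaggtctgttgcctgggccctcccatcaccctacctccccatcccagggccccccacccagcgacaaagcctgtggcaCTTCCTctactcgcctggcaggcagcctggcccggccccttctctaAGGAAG
Aqp1: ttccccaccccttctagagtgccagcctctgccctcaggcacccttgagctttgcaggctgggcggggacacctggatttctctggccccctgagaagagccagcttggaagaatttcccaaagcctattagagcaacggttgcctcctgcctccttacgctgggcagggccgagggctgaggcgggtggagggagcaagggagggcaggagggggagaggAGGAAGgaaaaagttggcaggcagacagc
Of the 3 genes, Flt1 and Aqp1 ranked the libraries in the same order, from WT1 lowest to KO1 highest, and Eng did not, with KO2 lowest. Log2 differences were 0.14 for Flt1, -0.27 for Eng and 0.084 for Aqp1. The 3 do not stand for all 10 genes with the hexamer. Differences of the rest (Egfl7, Emcn, Erg, Ly6c1, Rgcc, Robo4 and Tie1) were negative. The letters GTGGGAA, a core of sites of the Notch partner RBPJ, were found on either strand in the windows of Kdr and Tie1 and in 5.42% of all windows, and overlapped none of the hexamer matches in windows of the 35 genes. Erg itself, the ETS factor that maintains endothelial identity, ranged from 6.99 to 10.5 FPKM with a log2 difference of -0.023. Sox17 and Sox18, factors of arterial and early vessel development, ranged from 9.47 to 16.1 and from 4.85 to 10.7 FPKM.

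Among the genes of capillary function, Aqp1 and Ly6c1 gave the highest levels of the class. Aqp1 (chr6:55336432-55348555, plus strand), the water channel of continuous capillaries and of red cells, stood at 191, 211 and 213 FPKM against 238, 219 and 196 FPKM. Its values kept within a narrow range: the log2 difference was 0.084 ± 0.092 (SE; 95% interval -0.13 to 0.30), and 4365 to 6064 fragments stood behind each value. Gpihbp1 (chr15:75596628-75599481, plus strand), which carries lipoprotein lipase across the capillary wall, was at 42.5, 43.0 and 45.8 FPKM against 54.6, 51.5 and 37.4 FPKM, so that the libraries labelled knockout lay on both sides of the others. Rgcc (chr14:79288756-79301645, minus strand), a cell cycle regulator that also marks capillary endothelium, was at 38.1, 44.9 and 55.2 FPKM against 31.8, 53.7 and 27.8 FPKM. It had the lowest log2 difference of the class, at -0.32 ± 0.23 (SE; 95% interval -0.86 to 0.21), yet its second highest value was labelled knockout. Aplnr was all but level with Rgcc, at -0.32 ± 0.31 (SE). Ly6c1 (chr15:75044018-75048830, minus strand), a lipid-anchored surface protein of microvessels, was at 169, 120.2 and 122 FPKM against 139.5, 118 and 124 FPKM. Here WT1 was the highest and not the lowest. Ly6c1 is uncertain, since 32.8% of the 50-base words of its transcripts also occur in other genes, 21.5% in Ly6c2, and the sources used here do not say how such fragments were assigned.

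Secreted and less abundant endothelial products completed the class. Egfl7 (chr2:26580014-26593120, plus strand), a matrix protein secreted by endothelium, was at 44.0, 57.6 and 45.5 FPKM against 46.5, 38.5 and 56.5 FPKM, with overlapping groups and a log2 difference of -0.060 ± 0.15 (SE). Vwf, the clotting factor stored in endothelial granules, and Plvap, which forms the diaphragms of fenestrae and caveolae, were singled out after their values were seen. Vwf was at 18.0, 31.1 and 32.1 FPKM against 24.8, 21.1 and 23.2 FPKM. Plvap was at 6.97, 14.6 and 15.4 FPKM against 10.6, 8.32 and 11.5 FPKM, and like Kdr both had WT1 lowest and the other two of its label highest. Nos3, the endothelial nitric oxide synthase, ranged from 2.26 to 3.18 FPKM on 75 to 125 fragments.

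**Figure D3:**
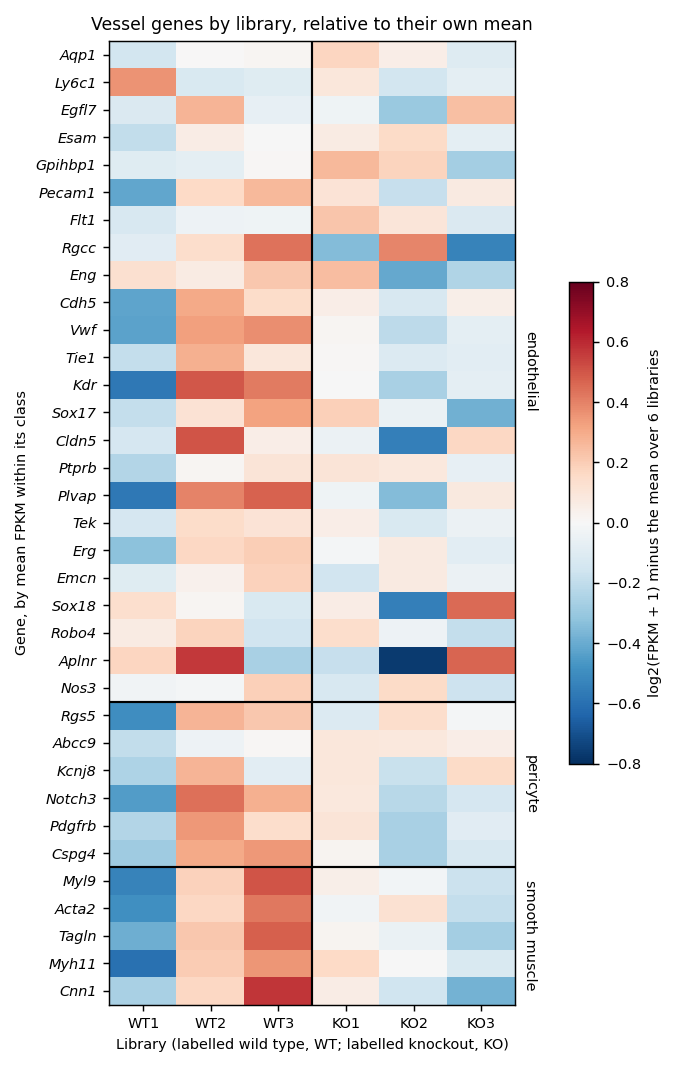
Heat map of the 35 genes (rows, grouped by cell class) in the 6 libraries (columns), coloured by log2(FPKM + 1) minus the mean of the gene over the 6 libraries. WT1 is the lowest of the 6 for 21 of the 35 genes, and WT2 or WT3 is the highest for 27.

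The pericyte genes were led by Rgs5 (chr1:169655501-169695813, plus strand), a regulator of G protein signalling and the standard pericyte transcript. It stood at 119, 203 and 196 FPKM (WT) and 156, 186 and 167 FPKM (KO). All values labelled knockout lay inside the wild-type range, and the log2 difference was 0.0088 ± 0.19 (SE; 95% interval -0.42 to 0.44). Abcc9 (chr6:142587862-142702315, minus strand) and Kcnj8 (chr6:142564837-142571614, minus strand) lie next to each other and encode the sulfonylurea receptor subunit and the pore of the vascular ATP-sensitive potassium channel. Abcc9 was at 37.1, 41.5 and 43.0 FPKM against 45.6, 45.5 and 44.3 FPKM. It was the single gene of the 35 whose groups did not overlap, beside 9.48% of all genes. Its log2 difference was 0.15 ± 0.084 (SE; 95% interval -0.040 to 0.35), with an unadjusted p of 0.106 and an adjusted p of 0.988 by limma. Kcnj8, its channel partner, was at 9.11, 13.5 and 10.3 FPKM against 11.8, 9.63 and 12.3 FPKM and overlapped fully, with a log2 difference of 0.043 ± 0.15 (SE). The ratio of Abcc9 to Kcnj8 lay between 3.08 and 4.72 over the 6 libraries. Abcc9 is also made by skeletal and cardiac muscle fibres, and it overlaps a gene on the opposite strand (5330439B14Rik), so its value is uncertain where strand was not used in counting.

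The receptor and matrix genes of pericytes were lower in level. Cspg4 (chr9:56865033-56899870, plus strand), the proteoglycan NG2, was at 1.81, 3.22 and 3.36 FPKM against 2.48, 1.86 and 2.12 FPKM. It had the lowest log2 difference of the class, at -0.24 ± 0.19 (SE), and its groups overlapped through WT1. Pdgfrb, the receptor that holds pericytes to the endothelium, ranged from 6.60 to 10.6 FPKM. Notch3, the Notch receptor of mural cells, ranged from 6.06 to 12.0 FPKM, and like Cspg4 and Pdgfrb it had its 2 highest values in WT2 and WT3.

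The smooth muscle genes varied more among the libraries labelled wild type than among those labelled knockout, and none passed the test between labels. Myl9 (chr2:156775420-156781658, plus strand), a regulatory light chain of smooth muscle myosin, was at 65.4, 108 and 135 FPKM against 98.3, 93.7 and 84.5 FPKM. Acta2 (chr19:34241090-34255590, minus strand), smooth muscle actin, was at 44.9, 71.2 and 85.4 FPKM against 62.2, 69.0 and 55.5 FPKM. Tagln (chr9:45929619-45936058, minus strand), an actin-binding protein of contractile cells, was at 42.0, 64.3 and 77.4 FPKM against 56.2, 53.4 and 45.6 FPKM. For all 3 the range of the libraries labelled wild type enclosed every value labelled knockout. Log2 differences were -0.10 ± 0.23 for Myl9, -0.065 ± 0.21 for Acta2 and -0.20 ± 0.20 for Tagln (SE). Myh11 (chr16:14194535-14291372, minus strand), the smooth muscle myosin heavy chain, was at 11.1, 20.0 and 22.4 FPKM against 19.4, 17.3 and 15.8 FPKM and had the highest difference of the class, 0.028 ± 0.23 (SE). Cnn1 (chr9:22099216-22109630, plus strand), calponin, had the lowest, -0.32 ± 0.23 (SE), at 1.34, 2.14 and 3.15 FPKM against 1.91, 1.497 and 1.15 FPKM. Its lowest value rests on 23 fragments, with an exact Poisson 95% interval of 14.6 to 34.5 that covers counting error only. WT3 was the highest of the 6 for all 5 genes, beside 19.7% of all genes. The ratio of Myl9 to Acta2 stayed between 1.36 and 1.58 and that of Tagln to Acta2 between 0.774 and 0.935, while Acta2 itself ran from 44.9 to 85.4 FPKM.

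Sequence bears on 2 points for this class. Acta2 is read in a tissue full of skeletal actin, so its coding sequence was compared with that of Acta1: both have 1134 coding bases, 85.4% of them identical, and the longest identical run is 29 bases. Acta2 shared 0.326% of its 50-base words with other genes, and none with Acta1. The first 90 coding bases are printed with their 22 differences in capitals.
Acta2: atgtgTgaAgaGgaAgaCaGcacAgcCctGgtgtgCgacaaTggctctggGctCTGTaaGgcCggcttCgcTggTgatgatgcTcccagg
Acta1: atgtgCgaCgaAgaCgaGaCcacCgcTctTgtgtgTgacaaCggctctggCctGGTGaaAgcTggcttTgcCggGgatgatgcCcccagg
The second point is the CArG box, the element bound by serum response factor that is classic for contractile genes. Searched on both strands, it was found in the RefSeq window of Myl9 and not in those of the other 2 smooth muscle genes matched, nor in any endothelial or pericyte window, and in 1.47% of all windows. It lies 161 bases upstream of the RefSeq start, in capitals in the part of the window that precedes every annotated transcript (chr2:156775214-156775419, plus strand), and is shown because Myl9 had the highest level of the class.
Myl9: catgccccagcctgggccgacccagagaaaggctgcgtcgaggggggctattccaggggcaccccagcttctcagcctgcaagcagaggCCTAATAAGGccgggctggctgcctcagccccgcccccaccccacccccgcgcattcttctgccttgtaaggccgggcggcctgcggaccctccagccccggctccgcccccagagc
No match says only that these letters are not in that window.

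In these classes the libraries labelled wild type differed more among themselves than the label means did, with WT1 mostly at the low end and, for the smooth muscle genes, WT3 at the high end. For the endothelial sum the libraries labelled knockout spread as much (SD 54.3 against 54.5 FPKM), and KO3 was the lowest, just below WT1. WT1 was the lowest of the 6 libraries for 21 of the 35 genes, 12 endothelial, 5 pericyte and 4 smooth muscle, beside 22.4% of all genes tested, and WT2 or WT3 was the highest for 27, beside 41.1%. It lay below both other libraries of its label for 30 of the 35, beside 44.6% of all genes. Taken as a percent of the mean of WT2 and WT3, it had a median of 83.7% over the endothelial genes, 64.2% over the pericyte genes and 53.7% over the smooth muscle genes, and 96.7% over all genes. Single endothelial genes ranged widely around their median, from 46.4% for Plvap and 46.9% for Kdr to 139% for Ly6c1. The smooth muscle sum per endothelial sum was 0.207 in that library and 0.256 to 0.365 in the other 5, and the pericyte sum per endothelial sum was 0.227 against 0.261 to 0.320. The median coefficient of variation over the 6 libraries was 15.1% for the endothelial, 18.4% for the pericyte and 22.9% for the smooth muscle genes, against 12.5% for all genes.

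Because WT1 decides several directions, the fit was repeated without it. WT1 was singled out after it was seen to be low for most of these genes, so leaving it out lowers most differences. The p-values of this fit are therefore a description and not support for a difference between labels. Then 28 of the 35 genes lay below 0, beside 58.1% of the 11425 genes tested, and the class medians were -0.18 (endothelial), -0.28 (pericyte) and -0.39 (smooth muscle). By limma, 13 genes had an unadjusted p below 0.05, all of them lower in the libraries labelled knockout, beside 9.33% of all genes lower at that threshold. Named after their values were seen, they were Kdr, Vwf, Plvap, Tie1 and Cdh5 of the endothelial genes, Rgs5, Cspg4, Pdgfrb and Notch3 of the pericyte genes, and Acta2, Tagln, Cnn1 and Myl9 of the smooth muscle genes. The log2 differences were then -0.57 for Kdr, -0.54 for Plvap, -0.44 for Vwf, -0.24 for Rgs5 and -0.33 for Acta2. None passed adjustment, where the smallest adjusted p of the 35 by limma was 0.120 (Kdr), and 1 gene of all tested did (0.00875%). Leaving out WT3 in its place took the smooth muscle median to 0.13 and the differences of Acta2, Myh11 and Myl9 above 0, while Tagln (-0.012) and Cnn1 (-0.12) stayed below it. Low unadjusted p-values by limma were not confined to the fit without WT1. Among the 17 genes named by rule, Flt1 (0.23) and Gpihbp1 (0.27) had an unadjusted p below 0.05 by limma without KO3. Both were higher under the knockout label. Rgcc, lower at -0.60, had an unadjusted p below 0.05 by limma without KO2. None of these passed the adjusted test. For 17 of the 35 genes every value labelled knockout was below both WT2 and WT3, beside 20.2% of all genes. WT1 was set aside for its low values in these genes, so this count too is a description and not support for a difference between labels.

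Markers of other cell types also differed between these libraries. The summed level of 8 fibroblast genes was 229.8, 477 and 460.0 FPKM (WT) and 242, 258 and 327 FPKM (KO). For 11 macrophage and leukocyte genes it was 40.1, 102 and 222 FPKM against 47.6, 39.9 and 60.8 FPKM, with S100a8 at 0 in at least 1 library. Adipocyte genes (5) held 22.5, 42.7 and 54.9 FPKM against 20.9, 15.4 and 27.2 FPKM, and tendon genes (5) 41.7, 107 and 76.0 FPKM against 39.2, 59.1 and 58.4 FPKM. In all 4 lists WT1 was far below the others of its label, as for the mural genes. Their part in the mural and endothelial values was not tested. Schwann cell genes (5) ranged only from 84.6 to 107 FPKM. Erythroid genes (5), which measure blood left in the vessels and hold near-identical globin copies, were at 758, 458 and 849 FPKM against 473, 711 and 783 FPKM, an order unlike that of any vessel class. Of the fibres themselves, slow fibre genes (7) held 528, 571 and 285 FPKM against 322, 369.9 and 254 FPKM and fast fibre genes (6) 54362 to 64990.3 FPKM over the 6 libraries.

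**Figure D4:**
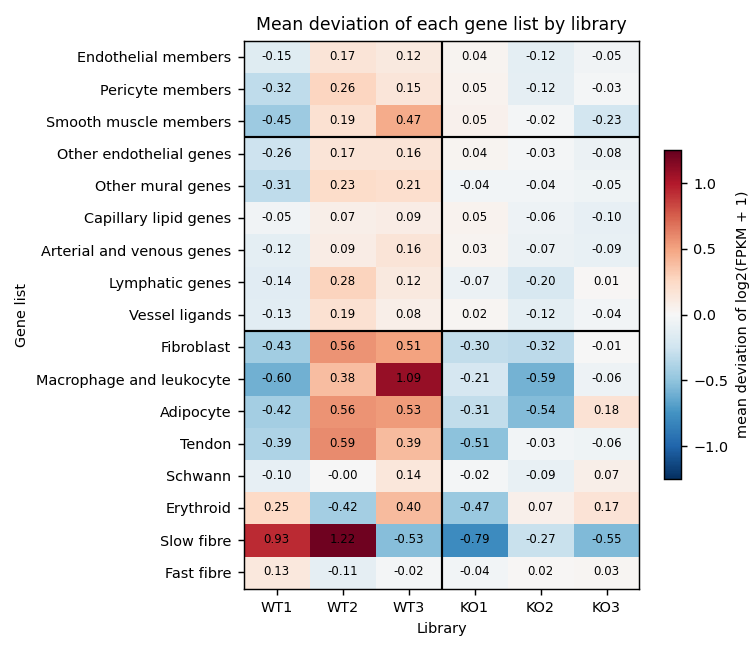
Mean deviation of log2(FPKM + 1) from the average of the 6 libraries for each gene list (rows) in each library (columns). The smooth muscle list runs from -0.45 in WT1 to 0.47 in WT3, and the fibroblast list from -0.43 to 0.56.

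Ligands that act on vessels and other genes linked to the vessel wall were read from lists drawn up by known function. Which cells of the muscle made these transcripts was not tested. Of 24 vessel ligands measured, 21 were tested, 7 above and 14 below 0, with a median of -0.13 and none past the adjusted test. Vegfa, the main growth factor for endothelium, was the highest, at 243 ± 36.9 FPKM (WT) and 223 ± 47.3 FPKM (KO; SD, n = 3 each). Vegfb, a ligand of Flt1 but not of Kdr, was at 135 ± 0.580 and 122 ± 14.3 FPKM. Both overlapped between labels. Among 34 other endothelial receptors and transcription factors, 11 lay above and 23 below 0, with a median of -0.027. Epas1, an oxygen-regulated factor, led them at 51.2 ± 3.69 and 50.8 ± 6.47 FPKM, followed by Ets2, an ETS factor, at 41.2 ± 6.56 and 38.1 ± 7.55 FPKM. Of 30 other mural genes 25 were tested, 8 above and 17 below 0, with a median of -0.10. Mustn1, a small protein of muscle lineages, was at 137 ± 47.6 and 90.1 ± 39.3 FPKM, and Smtn, smoothelin of contractile smooth muscle, at 38.9 ± 8.18 and 41.1 ± 2.49 FPKM. WT1 was the lowest of the 6 for 19 of the 34 endothelial and 17 of the 30 mural genes in these lists as well. None of either list passed the adjusted test.

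Genes for the passage of lipid through the capillary, where Gpihbp1 acts, had log2 differences below 0 for 9 of 10, beside 56.7% of all genes, with a median of -0.079 and none past the adjusted test. With each library's median subtracted 6 of the 10 lay below 0, beside 43.2%. Lpl, the lipase that Gpihbp1 binds, was at 259 ± 38.3 and 235 ± 7.30 FPKM, and Cd36, the fatty acid transporter, at 157 ± 11.4 and 153 ± 18.5 FPKM. Fabp4, a fatty acid binding protein of capillary endothelium and of adipocytes, was singled out after its values were seen, at 83.4 ± 5.92 and 72.0 ± 1.88 FPKM with groups that did not overlap, beside 9.48% of all genes, and an unadjusted p of 0.032 by limma, below 0.05 as for 4.59% of all genes. In the arterial and venous list Efnb2, an ephrin of arterial endothelium, also had groups that did not overlap, with the knockout label higher (log2 difference 0.12 ± 0.10, SE). Of 13 arterial and venous genes, among them Sele at 0 in at least 1 library, 10 were tested, 4 above and 6 below 0, and of 7 lymphatic genes 5 were tested, all below 0 with a median of -0.25. None of these passed the adjusted test. The lymphatic genes together held 12.8, 20.2 and 17.5 FPKM against 13.5, 11.6 and 15.5 FPKM, small beside the blood vessel classes.

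Levels between genes depend on the length used for each. The length behind the FPKM was within 1 base of the mean length of a gene's annotated transcripts for 22 of the 35, and it was over 2-fold shorter than the longest transcript for 4. For Vwf it was 2663 bases against 8834, for Flt1 2989 against 6895, for Esam 862 against 1865 and for Egfl7 806 against 1865. Scaled to the longest transcript, Aqp1 (211 FPKM) still led the endothelial genes, Rgs5 (100.7 FPKM) the pericyte genes and Acta2 (56.6 FPKM) the smooth muscle genes, the last barely above Tagln (56.2 FPKM) and Myl9 (53.6 FPKM). As deposited, Myl9 stood above Acta2. Ratios of FPKM between libraries of 1 gene do not depend on this length, but differences in log2(FPKM + 1) do, mostly for low genes. Genes on the opposite strand make Eng, Sox17, Nos3, Notch3 and Tagln uncertain in the same way as Abcc9. Egfl7 overlaps genes on both strands, with Gm20532 and Mir126a on its own, and shares 4.94% of its 50-base words with other genes, so for it strand would not settle the assignment.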

How the data were processed

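RNA from the tibialis anterior was measured in 3 libraries labelled wild type and 3 labelled knockout. The authors deposited FPKM per gene, 1 table per library. TopHat2 2.1.1, Cufflinks 2.2.1 and build mm10 were used, per the submitters' processing notes; the sources used here do not give their roles, the annotation or strand handling. Of 41025 gene identifiers, 40452 matched a symbol in GENCODE M21. The library totals were recovered first, from the values and the annotated exon lengths. With them, at least 1 length made the values whole fragments in every library for all 23559 genes above 0 (100%, tolerance 0.002). Where several lengths fitted, the mean transcript length was preferred, then the joined exon length, then the shortest. Genes with few fragments can fit many lengths, so for them the 100% is a weak check. One fragment on 1 kb was worth 0.0921 to 0.118 FPKM.

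Groups and replicate numbers came from titles. limma 3.58.1 (R 4.3.3, mean-variance trend) was fitted to log2(FPKM + 1) over genes averaging at least 1 FPKM, with Benjamini-Hochberg adjustment at 0.05. This scale understates changes of low genes. The fit was tested on simulated data. Chi-square tests found every pair of libraries to differ beyond sampling noise. Same-numbered libraries did not deviate together, so the numbers were not taken to pair them.

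Values in every library are given for the 8 endothelial, 3 pericyte and 3 smooth muscle genes of highest mean, those past a test or not overlapping, and each class's largest and smallest difference. Other lists name their 2 highest genes. Members and lists were chosen with earlier results of these data known. One listed gene is not reported here. Alternatives were 3 other scalings, a pseudocount of 0.1, no filter, a mean of at least 5 FPKM, a replicate block, limma voom on recovered fragments, and leaving out each library. Sequences came from RefSeq (GRCm38.p6) and GENCODE transcripts, with coding sequence taken as the longest open reading frame. Python 3.11.15, pandas 2.3.3, numpy 2.4.6 and scipy 1.17.1 handled tables.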

Additional observations from a re-analysis of the deposited data

How the results depend on the processing

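No gene of the 3 classes passed the adjusted test under any alternative run. Over all genes tested the count called was 0, and 0 to 3 when 1 library was left out (1 without WT1, 3 without WT3, 1 without KO3). Over the other 8 alternatives, 130 of 134 differences of the 17 genes named by rule kept their direction. No filter, the mean of at least 5 FPKM and the replicate block leave a gene's difference unchanged, so these runs could not reverse any. The 4 that reversed were Pecam1, at 0.046 with library medians subtracted, 0.015 after quantile normalization, 0.016 without the mitochondrial total and 0.0010 with voom. With 1 library left out, 8 genes reversed at least once: Pecam1 ranged from -0.21 to 0.13, Ly6c1 from -0.18 to 0.064, Egfl7 from -0.20 to 0.074, Rgs5 from -0.24 to 0.15, Kcnj8 from -0.071 to 0.19, Acta2 from -0.33 to 0.13, Myh11 from -0.26 to 0.21 and Myl9 from -0.39 to 0.13. Class medians then ranged from -0.18 to -0.022 (endothelial), -0.28 to 0.068 (pericyte) and -0.39 to 0.13 (smooth muscle). With library medians subtracted they were -0.035, -0.032 and -0.053, and the pericyte median was 0.0088 over genes averaging at least 5 FPKM, where fewer genes were tested. The cause of the other shifts was not tested. Same-numbered libraries had deviation correlations of 0.024, -0.041 and 0.023, and the other pairs ran from -0.052 to 0.032. No pairing by number was seen, but a weak correlation over all genes cannot exclude that such libraries share a batch. With the replicate block 0 genes were called, with 472 at an unadjusted p below 0.05 by limma in place of 523. Depth limits Cnn1, Aplnr and Nos3 most.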
